A study of Drosophila melanogaster with 6 samples.

Results

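The genes described here encode the recognition proteins of the fly humoral immune response: the peptidoglycan recognition proteins (PGRPs) and the Gram-negative binding proteins (GNBPs). Of 10 listed genes, 6 had a probe set that the platform annotation assigns to that gene alone: PGRP-SB1, PGRP-SC2, PGRP-LB, PGRP-LE, PGRP-LF and GNBP3. Each of the 6 had 1 such probe set, so the choice of the brightest probe set per gene left nothing to select. For PGRP-SA, PGRP-SD, PGRP-LC and GNBP1 the annotation used here names no probe set, and these 4 genes were not analysed here. The 6 genes stand among 11982 genes measured in the same way, and all 6 were above the signal floor on all 6 arrays.

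Whole adult Drosophila melanogaster of 3 genotypes were compared: the mutant gyc76c[KG03723], the mutant spz[rm7] and the control gyc76c[revert], called KG03723, rm7 and revert below. Gyc76C is a receptor guanylate cyclase, and spz encodes Spätzle, the ligand of the Toll receptor. Flies of each genotype were injected with the bacterium Staphylococcus saprophyticus or with phosphate-buffered saline (PBS), and RNA was taken 12 hours later. Each of the 6 groups is 1 array, and the labels do not say how many flies, or of which sex, were pooled on an array. The labels give the alleles by name and say nothing of their molecular nature. All flies had been injected, so wounding is common to every group and uninjected flies are not among the samples.

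In flies, PGRPs bind peptidoglycan of the bacterial cell wall, and GNBPs bind glucans or work together with PGRPs. The secreted proteins PGRP-SA, PGRP-SD and GNBP1 sense lysine-type peptidoglycan, the type found in Staphylococcus, and GNBP3 senses fungal glucan. These sensors start a protease cascade that cleaves Spätzle and so activates Toll. PGRP-LC at the membrane and PGRP-LE inside the cell sense the diaminopimelic acid type found in Gram-negative bacteria and start the immune deficiency (IMD) pathway. PGRP-LB, PGRP-SB1 and the PGRP-SC proteins are amidases that cut peptidoglycan, and PGRP-LF is a membrane protein that dampens signalling through PGRP-LC. Several amidase genes and PGRP-LF are known as targets of the IMD pathway as well as regulators of it.

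The array values are MAS5 signals, linear intensities that were deposited with a common trimmed mean. Over the 9540 genes that entered the fit, those above a floor of 42.7 on 3 or more arrays, Pearson r between arrays was 0.946 to 0.985. Marker genes of gut, fat body, blood cells, testis, accessory gland, eggshell and flight muscle were all above the floor on at least 1 array. Their summed signals differed between arrays: 23305 to 42608 for 12 plasmatocyte markers and 13841 to 25652 for 16 testis markers, both lowest on the revert bacteria array; 45949.6 to 85721 for 16 accessory gland markers and 14944 to 23926 for 9 flight muscle markers, both lowest on the rm7 PBS array; and 89573 to 140792 for 13 eggshell markers, lowest on the rm7 bacteria array. Nplp2 was the brightest plasmatocyte marker, at 14168.5 on the revert bacteria array and 30546 on the rm7 bacteria array. Of the 12 plasmatocyte markers, 9 were lower in KG03723 than in revert after bacteria. On the rm7 bacteria array the eggshell markers split, 6 above and 7 below their level in revert after bacteria. Cp19 read 622 there against 11101 in revert, and Vm34Ca 41453 against 33341. The part of these markers in the values below was not tested. The brightest Gyc76C probe set, shared with CG42637, read 1234 after bacteria and 1085 after PBS in KG03723, against 2004 and 2092 in revert. The spz signal was 813 after bacteria and 951 after PBS in rm7, 1094 and 942 in KG03723, and 1122 and 1059 in revert. Since the labels do not state whether the rm7 allele lowers the transcript, this level does not check the rm7 label. The ratio of 3′ to 5′ signal in the actin control transcript was 2.81 on the rm7 bacteria array and between 2.29 and 2.51 on the other 5 arrays, and the GAPDH and eIF-4a controls were also highest on that array, at 2.68 and 6.61. Ratios of 2 arrays have no replicate error and are given without a test. The tests come from 1 additive limma fit of genotype and injection over the 6 arrays, adjusted over all 9540 genes. What departs from additivity serves as its error, and this includes any response to bacteria that is unequal between genotypes.

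The amidase gene PGRP-SB1 differed most between arrays. Its signal was 6088 after bacteria and 11468 after PBS in KG03723. In rm7 it was 13048.5 after bacteria and 6972 after PBS. In revert it was 5469.5 after bacteria and 7289 after PBS. The rm7 bacteria array and the KG03723 PBS array were thus the 2 high ones, and the other 4 lay between 5469.5 and 7289. The ratio of bacteria to PBS was 0.531 in KG03723, 1.87 in rm7 and 0.750 in revert, so the direction in rm7 was opposite to that in the other 2 genotypes. After bacteria the rm7 signal was 2.39-fold that of revert, and after PBS it was 0.957 of it. The summed signal of the 12 fat body markers with a probe set, of 13 listed, was 45714 after bacteria and 69155 after PBS in KG03723, 60351 and 59833 in rm7, and 39989 and 55684 in revert. None of the 12 was under the floor on all arrays. The part of fat body content, and of the 3′ to 5′ ratios above, in the PGRP-SB1 values was not tested. In whole flies, fewer cells of a type and less RNA per cell cannot be told apart.

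PGRP-LB, which encodes an amidase that limits IMD signalling, was at 486 after bacteria and 514 after PBS in KG03723. It was at 712 after bacteria and 336 after PBS in rm7. In revert it was at 564 after bacteria and 407 after PBS. The rm7 arrays held both the highest and the lowest signal of this gene, and the 2 KG03723 arrays lay close together. The ratio of bacteria to PBS was 0.945 in KG03723, 2.12 in rm7 and 1.38 in revert. PGRP-LB was the 1 member of the 6 that reached 2-fold after bacteria in any genotype.

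PGRP-SC2, a secreted amidase known mainly from the gut, read 4329 after bacteria and 5016 after PBS in KG03723. It read 3843 after bacteria and 2833 after PBS in rm7, and 5104 after bacteria and 3395 after PBS in revert. The log2 ratio of bacteria to PBS was -0.21 in KG03723, 0.44 in rm7 and 0.59 in revert. After PBS, KG03723 was 1.48-fold above revert and rm7 was at 0.834 of it, so the genotypes were already apart without bacteria. Midgut markers, 21 of 29 listed, summed to 148122 after bacteria and 151135 after PBS in KG03723, 169363 and 147928 in rm7, and 221799 and 200827 in revert. None of the 21 was under the floor on all arrays, and the part of gut content in the PGRP-SC2 and PGRP-LB values was not tested.

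**Figure D1:**
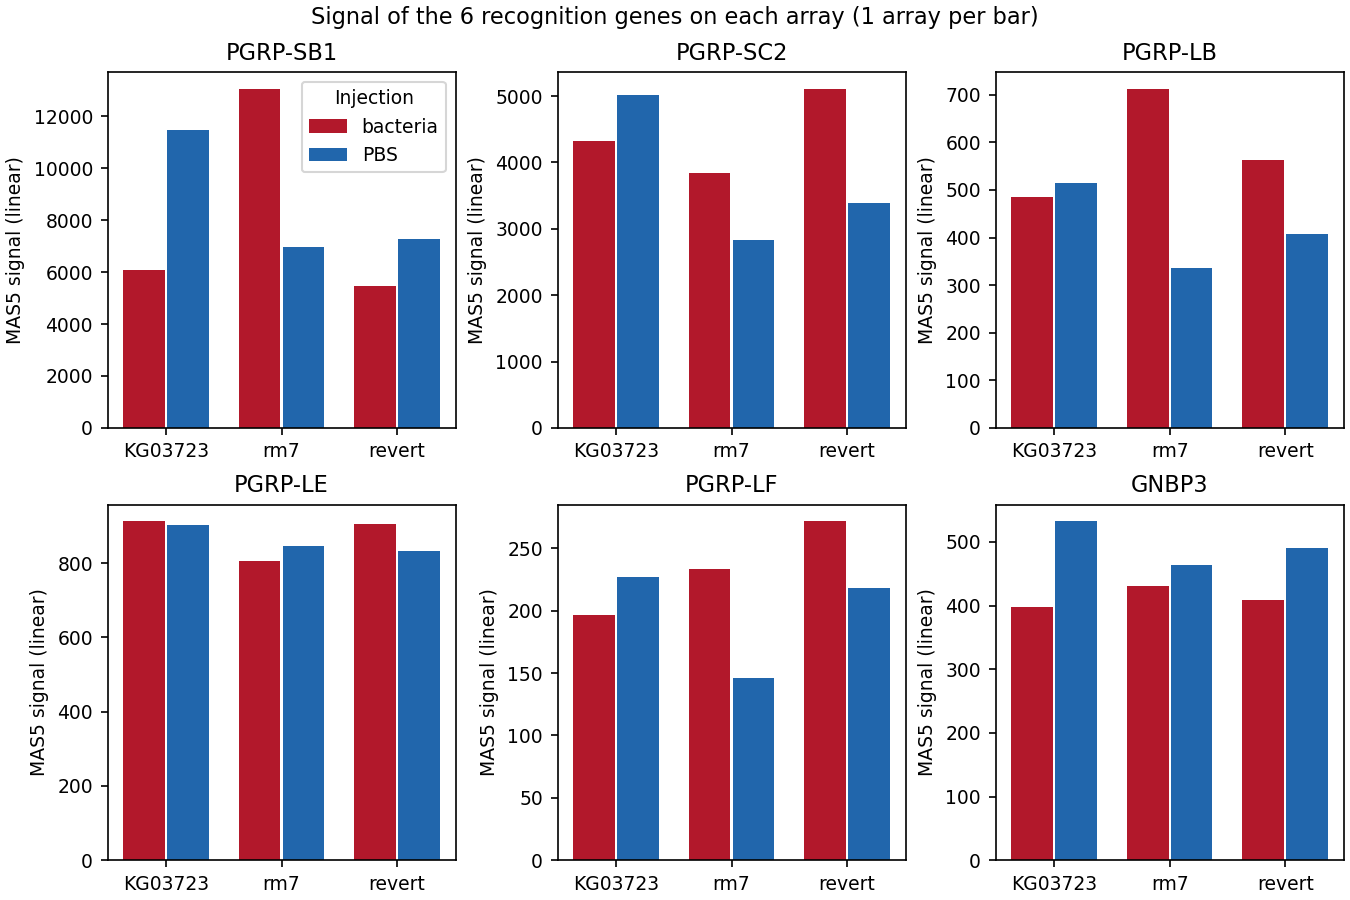
Linear MAS5 signal of the 6 recognition genes in KG03723, rm7 and revert flies, 1 panel per gene, with bacteria in red and PBS in blue; each bar is 1 array and there are no error bars because no group has a second array. PGRP-SB1 reaches 13048.5 on the rm7 bacteria array and 11468 on the KG03723 PBS array, and PGRP-LE stays between 806 and 912.

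The signal of the membrane protein gene PGRP-LF was lowest on the rm7 PBS array and highest on the revert bacteria array. It read 196 after bacteria and 227 after PBS in KG03723, 233 and 146 in rm7, and 272 and 219 in revert. The bacteria to PBS ratio was 0.865 in KG03723, 1.60 in rm7 and 1.24 in revert. In the RefSeq gene table PGRP-LF neighbours PGRP-LC, and PGRP-LC neighbours PGRP-LA, a further family gene. PGRP-LA gave ratios of 0.895 in KG03723, 1.61 in rm7 and 1.22 in revert. Those of PGRP-LF lay close to them in each genotype.

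PGRP-LE, the intracellular sensor of the IMD pathway, was the steadiest of the 6. Its signal was 912 after bacteria and 903 after PBS in KG03723, 806 and 846 in rm7, and 906 and 832 in revert. Its log2 signal spanned 0.18 over the 6 arrays, against a median span of 0.57 over the 9540 genes tested. The median span of the 6 members was 0.87, and 2 of the 6 spanned at least 1, as did 21.0% of all genes tested.

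GNBP3, the sensor of fungal glucan, was lower after bacteria in each genotype. It read 398 after bacteria and 532 after PBS in KG03723, 431 and 464 in rm7, and 408 and 491 in revert. The 3 bacteria arrays lay below the 3 PBS arrays without overlap, which made GNBP3 the 1 of 6 members without overlap in either direction, where 4.72% of all genes tested had none. The ratios were 0.748 in KG03723, 0.929 in rm7 and 0.831 in revert.

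Across the members, the median log2 ratio of bacteria to PBS was -0.21 in KG03723, 0.56 in rm7 and 0.22 in revert, where the medians over all measured genes were 0.02, 0.00269 and -0.00351. Of the 6 members, 1 lay above 0 in KG03723, 4 in rm7 and 4 in revert. At least 2-fold apart after bacteria were 0 of 6 in KG03723 (1.4% of all genes in either direction), 1 of 6 in rm7 (0.981%) and 0 of 6 in revert (4.19%). With 6 genes, 1 gene decides such a count, and PGRP-LB in rm7 was that gene.

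**Figure D2:**
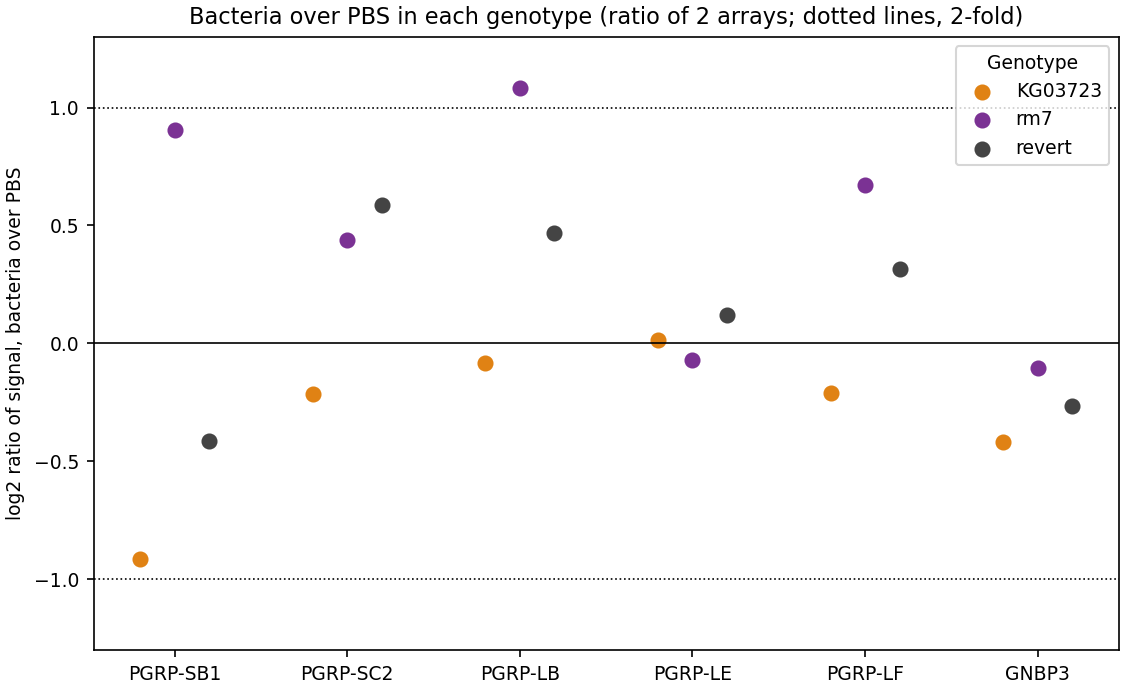
The log2 ratio of bacteria to PBS signal for each recognition gene, with 1 point for KG03723, rm7 and revert; each point is the ratio of 2 arrays, and dotted lines mark 2-fold. PGRP-LB in rm7, at 1.08, is the 1 point beyond a dotted line, and PGRP-SB1 lies at 0.90 in rm7, with -0.91 in KG03723 and -0.41 in revert.

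Differences between the responses of 2 genotypes rest on 4 arrays and were not tested. For PGRP-SB1 the log2 response in rm7 was 1.32 above that in revert and 1.82 above that in KG03723. For PGRP-LB the corresponding differences were 0.61 and 1.16. PGRP-SB1 was the 1 of 6 members at least 1 apart between rm7 and revert, where 11.7% of all genes above the floor on those arrays were, and PGRP-SB1 and PGRP-LB were 2 of 6 between rm7 and KG03723, where 4.05% were. Between KG03723 and revert 0 of 6 were (4.86%). There the KG03723 response was the lower one for all 6 members, by 0.80 for PGRP-SC2, 0.55 for PGRP-LB, 0.52 for PGRP-LF, 0.50 for PGRP-SB1, 0.15 for GNBP3 and 0.11 for PGRP-LE on the log2 scale. Over all 8934 genes above the floor on those 4 arrays the KG03723 response was the lower one for 46.6%, with a median difference of 0.023, against -0.51 over the 6 members. The 6 values come from the same 4 arrays, so they are not 6 separate observations of the genotypes. The 2 comparisons with revert share its arrays.

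The shared effect of bacteria over the 3 genotypes, 3 arrays against 3, was tested in the limma fit. After adjustment 0 of 6 members passed, as did 0% of the 9540 genes, and at an unadjusted p under 0.05 there were 0 of 6 members and 347 genes (3.64%). The largest difference among the members was that of PGRP-LB, with a log2 of 0.49 ± 0.23 (SE), an interval at 95% of -0.05 to 1.03 and a limma adjusted p of 1. Its interval still holds a change of 2.04-fold. Over arrays left out in turn it was 0.19 to 0.78. Without either rm7 array it was 0.19, and PGRP-SB1 (-0.66) and GNBP3 (-0.34) were then larger in size. PGRP-SC2 had 0.27 ± 0.15, PGRP-LF 0.26 ± 0.23 and GNBP3 -0.26 ± 0.15. PGRP-LE had 0.02 ± 0.11, with an interval from -0.24 to 0.28, which holds no change beyond 1.22-fold upward. PGRP-SB1 had -0.14 ± 0.30. Leaving out either KG03723 array turned its sign, to 0.25 each time.

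Departure from additivity was uneven among the members. The residual SD of PGRP-SB1 was 0.66 on the log2 scale, larger than that of 98.4% of the genes tested, and the median over all genes was 0.17. PGRP-LB had 0.41, PGRP-LF 0.31 and PGRP-SC2 0.30. GNBP3 and PGRP-LE were below the median of all genes, at 0.11 and 0.07.

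Between KG03723 and revert, 2 arrays against 2, 0 of 6 members passed in the limma fit, where 1.37% of all genes did, and 0 of 6 had an unadjusted p under 0.05, where 8.52% did. PGRP-SB1 had a log2 difference of 0.40 ± 0.37 (SE), with an interval of -0.48 to 1.29. PGRP-LF had -0.21 ± 0.28, PGRP-SC2 0.16 ± 0.19, PGRP-LE 0.06 ± 0.13, PGRP-LB 0.06 ± 0.28 and GNBP3 0.04 ± 0.18. After PBS alone all 6 were above revert in KG03723, with a median log2 ratio of 0.23 against -0.04 over all genes. After bacteria 2 of 6 were above it, with a median of -0.12 against 0.01. In neither case was any of the 6 at least 2-fold apart, which 3.16% of all genes were after PBS and 3.58% after bacteria.

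Between rm7 and revert 0 of 6 members passed, against 5.61% of all genes, and 0 of 6 had an unadjusted p under 0.05, against 17.3%. PGRP-SB1 had a log2 difference of 0.60 ± 0.37 (SE, limma adjusted p = 0.516), with an interval of -0.29 to 1.48. This value rests on single arrays. Without the rm7 PBS array it was 1.38, without the revert PBS array 0.80, and without the rm7 bacteria array -0.19. Each of these fits leaves 1 array of a genotype, so only the differences are given. PGRP-LF had -0.40 ± 0.28, PGRP-SC2 -0.34 ± 0.19, PGRP-LE -0.07 ± 0.13, PGRP-LB 0.03 ± 0.28 and GNBP3 -0.00169 ± 0.18. After PBS 0 of 6 were at least 2-fold apart (6.88% of all genes), with 5 of 6 below revert. After bacteria 1 of 6 was (8.55%), PGRP-SB1, with 3 of 6 above revert.

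The mutants were also set against each other, without the revert level. Here 0 of 6 members passed, against 6.11% of all genes, and 1 of 6 had an unadjusted p under 0.05, against 17.8%. That gene was PGRP-SC2, lower in rm7 than in KG03723 by a log2 of -0.50 ± 0.19 (SE, limma adjusted p = 0.228). It was lower in rm7 than in KG03723 after both injections. The difference was -0.86 without the KG03723 bacteria array and -0.13 without the KG03723 PBS array. Without either revert array it was unchanged at -0.50. These fits leave 1 array of a genotype, so only the differences are given.

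**Figure D3:**
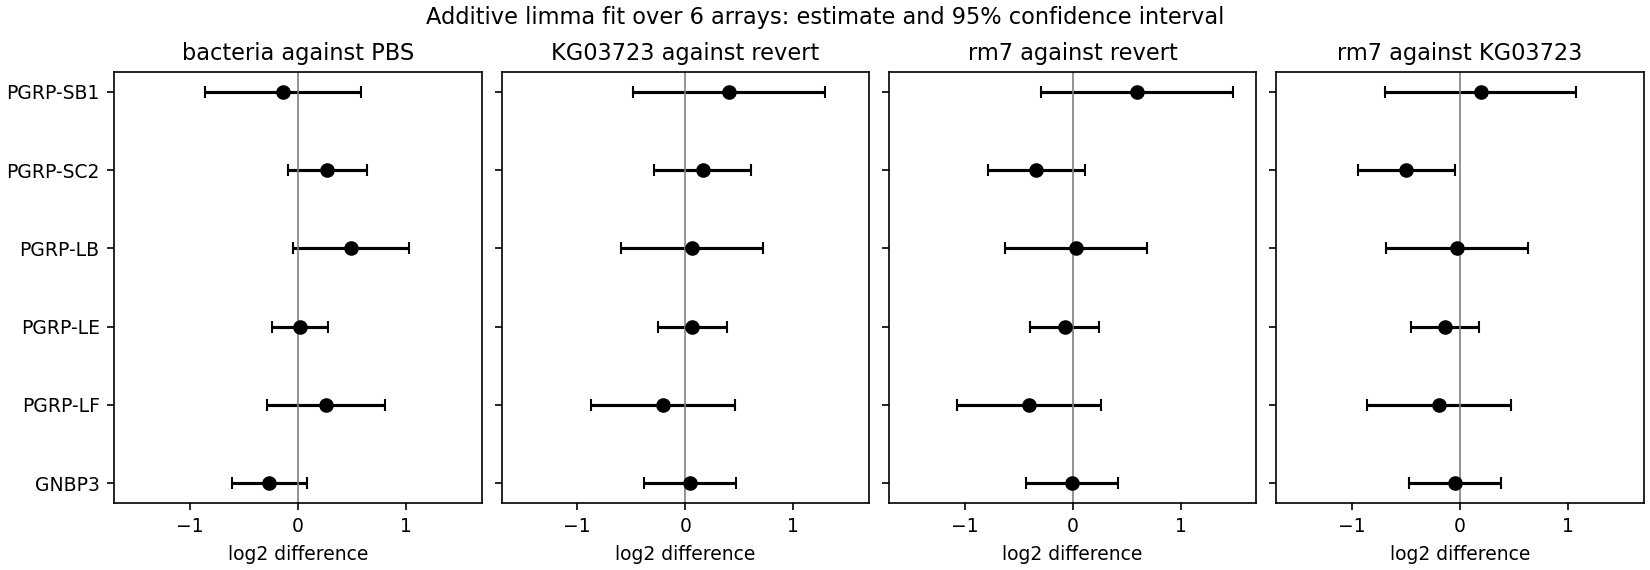
Estimated log2 difference of each recognition gene for bacteria over PBS, KG03723 over revert, rm7 over revert and rm7 over KG03723 in the additive limma fit over 6 arrays; points are estimates and bars are intervals at 95%, before adjustment. The interval of PGRP-SC2 for rm7 against KG03723, -0.95 to -0.05, is the 1 that does not cross 0, and PGRP-SB1 has the widest intervals.

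Other genes of the family were described from a list of 9. PGRP-LA, GNBP2, CG12780 and CG30148 had a probe set of their own and were tested, and PGRP-SB2, which neighbours PGRP-SB1 in the gene table, was under the floor on all 6 arrays. CG12780, listed in the gene table with the synonym GNBP-like, had signals of 934 after bacteria and 681 after PBS in rm7, against 1796 and 1735 in revert. The KG03723 signals, 1110 after bacteria and 1332 after PBS, lay between those of rm7 and revert. The share of all genes with genotypes ordered in this way was not counted. CG12780 was lower in rm7 than in revert by a log2 of -1.15 ± 0.18 (SE, limma adjusted p = 0.0155), the 1 of 4 that passed, where 5.61% of all genes did. Its limma adjusted p was 0.0726 without the variance trend and 0.215 without the filter on low signals. Over arrays left out in turn the difference was -1.43 to -0.87. GNBP2 read 209 after bacteria and 185 after PBS in KG03723, 168 and 249.7 in rm7, and 153 and 219.5 in revert, and did not pass in any contrast.

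PGRP-SC1a and PGRP-SC1b, amidase genes close to PGRP-SC2, share 1 probe set and cannot be told apart. It was outside the fit of single genes, and was singled out after its values were seen. Its signal was 1395 after bacteria and 759.5 after PBS in rm7. In KG03723 it was 309 after bacteria and 363 after PBS, and in revert 152 and 161. After both injections rm7 was highest and revert lowest. The share of all probe sets with genotypes apart in this way was not counted. In a limma fit over 11405 probe sets with the same filter, rm7 was higher than revert by a log2 of 2.72 ± 0.30 (SE, limma adjusted p = 0.0045), a fold of 6.57, where 5.72% of probe sets passed. It was also higher in rm7 than in KG03723, by 1.62 ± 0.30 (limma adjusted p = 0.0285, 5.98% of probe sets). For KG03723 against revert the value was 1.10 ± 0.30 (limma adjusted p = 0.222), with 1.24% of probe sets past the threshold. Over arrays left out in turn that value was 0.78 to 1.41. PGRP-SC2, which neighbours PGRP-SC1b in the gene table, was by contrast below revert in rm7 after both injections. The midgut marker sums given above were lower in rm7 than in revert, and their part in the PGRP-SC1 signal was not tested.

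**Figure D4:**
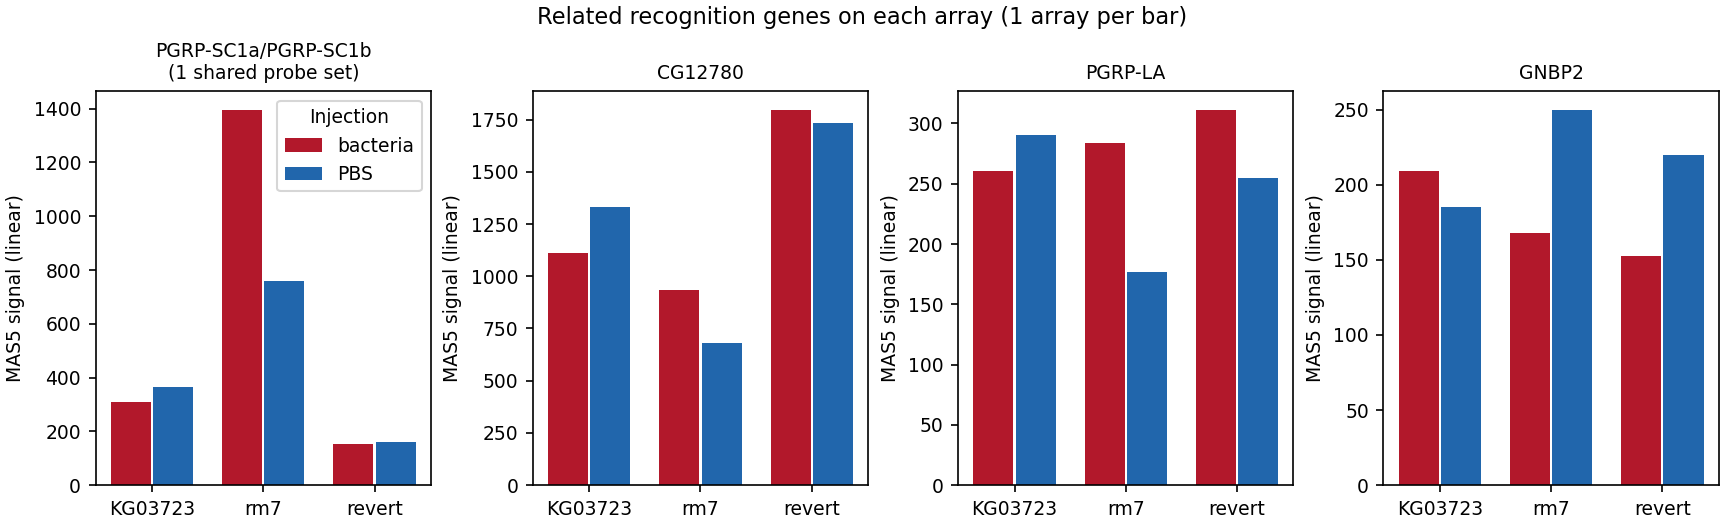
Linear MAS5 signal of the probe set shared by PGRP-SC1a and PGRP-SC1b and of CG12780, PGRP-LA and GNBP2 in KG03723, rm7 and revert flies, with bacteria in red and PBS in blue; each bar is 1 array. The shared probe set is at 1395 and 759.5 in rm7 and at 152 and 161 in revert, and CG12780 is lowest in rm7.

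Genes on either side of the recognition step were counted from lists chosen with results of these data known. Over all genes tested, 0% passed for bacteria against PBS, 1.37% for KG03723 against revert, 5.61% for rm7 against revert and 6.11% for rm7 against KG03723. Of 12 tested genes of the protease cascade that leads to Spätzle, 0 were higher and 2 lower in rm7 than in revert: SPE, the protease that cleaves Spätzle, with a log2 difference of -2.13 ± 0.29 (SE, limma adjusted p = 0.00852), and the serpin gene nec, with -1.66 ± 0.31 (limma adjusted p = 0.0276). Neither passed without the variance trend (limma adjusted p of 0.0523 for SPE and 0.104 for nec) or without the filter on low signals (0.225 and 0.312), and nec did not pass with the mean over probe sets (0.0548). Both were also lower in rm7 than in KG03723. For SPE the difference was -2.32 ± 0.29 (limma adjusted p = 0.00575, or 0.201 without the filter). For nec it was -1.90 ± 0.31 (limma adjusted p = 0.016, or 0.0728 without the trend and 0.269 without the filter). Over arrays left out in turn these differences were -2.89 to -1.75 for SPE and -2.55 to -1.25 for nec. In the same list 0 of 12 passed for KG03723 against revert. The ratio of bacteria to PBS for SPE was 2.13 in KG03723, 1.15 in rm7 and 2.99 in revert. For nec it was 2.52, 1.06 and 2.72. The log2 ratio of rm7 to revert was -1.44 after PBS and -2.82 after bacteria for SPE, and -0.98 and -2.34 for nec. These ratios of 2 arrays were not tested. Of 10 tested genes of the Toll receptor and its intracellular pathway, 0 passed in any of the 4 contrasts. Of 11 tested genes of the intracellular IMD pathway, ben, which encodes a ubiquitin-conjugating enzyme, was higher in rm7 than in revert, and no other passed in any contrast. For ben the difference was 0.90 ± 0.13 (limma adjusted p = 0.0113, or 0.0699 without the trend and 0.157 without the filter). Over arrays left out in turn it was 0.74 to 1.07. Of 9 negative regulators of IMD 0 passed in any contrast. In that list pirk, which acts on PGRP-LC, had the largest bacteria to PBS ratio in rm7, at 417 after bacteria and 258 after PBS (1.61). It read 305 after bacteria and 285 after PBS in KG03723, and 347 and 308 in revert. In rm7, POSH of the same list went the other way, at 515 after bacteria and 818 after PBS (0.630). Of the 9 genes, 4 had a log2 ratio above 0 in rm7 and 5 below, with a median of -0.01. Rel, the transcription factor of the IMD pathway, had ratios of 1.45 in KG03723, 1.44 in rm7 and 1.63 in revert.

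The genes whose profile over the 6 arrays was most like that of a member were sought for the 2 members whose log2 signal spanned at least 1. For PGRP-SB1 these were Obp8a, an odorant-binding protein gene (Pearson r = 0.94), and twit (0.94). Obp8a read between 46.8 and 106, close to the floor of 42.7. For PGRP-LB the most similar genes were the troponin C gene TpnC73F (0.92), which is among the flight muscle markers above, and CG31189 (0.84). The candidates were 1699 genes that passed the floor on every array and spanned at least 1, of which 5 had an r of at least 0.9 with PGRP-SB1 and 1 with PGRP-LB. These values describe 6 arrays that differ in genotype and injection at once.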

How the data were processed

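Biotin-labelled cRNA from whole flies was hybridized to Affymetrix Drosophila arrays, per the labels' protocols. The authors deposited linear intensities of probe sets, for which the submitters' processing notes name MAS5 without a version. Each array has a 2% trimmed mean of 500.01 in the deposited values. After 183 control probe sets were left out of 18952, probe sets with 1 listed gene (13647) were named from the platform annotation and checked by identifier against RefSeq genes of Release 6, and the brightest per gene was used (11982 genes). Signals under 42.7, the 40th percentile, were raised to that floor, and log2 was taken. Limma 3.58.1 in R 4.3.3 fitted genotype and injection additively over 6 arrays (2 residual degrees of freedom, variance trend, Benjamini-Hochberg at 0.05) to 9540 genes, those over the floor on 3 arrays or more. Nothing says that arrays came from separate cultures, and their number limits the precision. The fit was tested on simulated data with independent noise and an rm7 change that was equal under both injections. That simulation does not cover responses to bacteria that are unequal between genotypes.

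The members and gene lists were chosen with earlier results of these data known. Named were all members, listed genes that passed, and only some of the listed genes with the largest ratios. The mutated genes, a few further family and marker genes, and the 2 genes most like each member that spanned at least 1 were named as well. Also tried were cyclic loess and quantile normalization, a floor at the 20th or the 60th percentile, a pseudocount, the mean over probe sets, no variance trend, no filter and each array left out; the fit over all probe sets was added after the data were seen. Sequences were not used here.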

Additional observations from a re-analysis of the deposited data

Results flagged for a closer look

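PGRP-SB1 was higher after bacteria in rm7 and lower in both other genotypes, each by at least 0.25 on the log2 scale. The response in rm7 exceeded that in KG03723 by 1.82 and that in revert by 1.32 on the log2 scale. With 1 array per group the difference was not tested. The probe set shared by PGRP-SC1a and PGRP-SC1b, which lies outside the single-gene comparisons, read 1395 on the rm7 bacteria array, against 152 on the revert bacteria array and 161 on the revert PBS array.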

How the results depend on the processing

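With 1 array per genotype and injection there were no replicates to pair, and the additive fit already compares bacteria with PBS within each genotype. The count at least 2-fold apart after bacteria in rm7 was 1 as reported and 0 with a pseudocount in place of the floor, where the PGRP-LB log2 ratio was 0.99. With the floor at the 60th percentile PGRP-LF was at the floor of 241 on 5 of 6 arrays, including both rm7 arrays. Leaving out an array leaves 1 array of that genotype, so passing members are not counted here for those smaller fits. With each array left out in turn, signs turned in 24 of the single-gene values, and in none under the other alternatives run. The ranges over arrays left out, on the log2 scale, were as follows. For bacteria against PBS they were -0.66 to 0.25 for PGRP-SB1, -0.027 to 0.068 for PGRP-LE, 0.11 to 0.51 for PGRP-SC2, 0.19 to 0.78 for PGRP-LB, 0.052 to 0.49 for PGRP-LF and -0.34 to -0.19 for GNBP3. For KG03723 against revert they were -0.18 to 0.98 for PGRP-SB1, -0.20 to 0.53 for PGRP-SC2, -0.37 to 0.49 for PGRP-LB, -0.010 to 0.14 for PGRP-LE, -0.56 to 0.15 for PGRP-LF and -0.075 to 0.16 for GNBP3. For rm7 against revert they were -0.19 to 1.38 for PGRP-SB1, -0.41 to 0.47 for PGRP-LB, -0.15 to 0.00225 for PGRP-LE, -0.12 to 0.12 for GNBP3, -0.57 to -0.098 for PGRP-SC2 and -0.71 to -0.090 for PGRP-LF. For rm7 against KG03723 they were -0.59 to 0.97 for PGRP-SB1, -0.47 to 0.41 for PGRP-LB, -0.55 to 0.16 for PGRP-LF, -0.16 to 0.076 for GNBP3, -0.86 to -0.13 for PGRP-SC2 and -0.21 to -0.068 for PGRP-LE. The probe set of PGRP-SC1a and PGRP-SC1b stayed higher in rm7 than in revert under every alternative run for it, by 2.09 to 3.23. SPE, nec, CG12780 and ben did not pass in rm7 against revert without the variance trend or without the filter. Dropping the filter lets all 11982 genes into the fit and its variance estimate. Among them are genes at the floor on all 6 arrays, such as PGRP-SB2. The causes were not tested.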
